A study of Homo sapiens with 8 samples.

Results

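Protein-coding promoters that lacked accessible chromatin were described in U2OS cells, a human osteosarcoma line, from peak lists of the assay for transposase-accessible chromatin with sequencing (ATAC-seq), in which the transposase Tn5 cuts DNA that is not covered by packed nucleosomes. The promoter of a gene was the window of 1 kb either side of its transcription start site (TSS; the gene-level start in GENCODE release 44 on build hg38), on chromosomes 1 to 22 and X. A promoter was called closed where none of the 8 lists had an accessible region that overlapped this window. Of 19970 promoters, 3872 (19.4%) were closed, 11258 had a region in all 8 lists and 4840 had a region in 1 to 7 lists. The closed promoters were thus chosen by the lists themselves. Their own lack of regions is therefore a description and was not tested.

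The libraries formed 4 groups of 2 biological replicates. They were wild-type (WT) cells without UV, WT cells 3 h after UV-C light at 20 J/m2, ASH1L-/- cells without UV, and ASH1L-/- cells 3 h after the same dose. ASH1L is a histone methyltransferase of the trithorax group. The ASH1L-/- cells carried CRISPR/Cas9 deletions in coding exons and were grown from isolated colonies, so that they represent a clonal line. The lists held between 158198 and 220783 regions, the most in replicate 1 of ASH1L-/- cells without UV, and carried no read counts. The ASH1L promoter had a region in all 8 lists and so does not check the genotype. In each library alone, between 6158 and 7155 promoters had no region, and leaving out any of the 8 libraries raised the number of closed promoters to between 3975 and 4159. In a bulk sample, a promoter that is open in few cells and a promoter that is weakly open in many cells cannot be told apart, and either may miss the list.

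A cell of a given lineage uses only part of its genes. Large families of sensory receptors, secreted defence proteins, structural proteins of skin and hair, and germ-line proteins arose by tandem duplication and lie side by side in the genome, each used in a specialised tissue. Promoters of broadly used genes usually lie in CpG islands, stretches rich in the dinucleotide CpG, whereas many tissue-specific promoters are poor in CpG and some carry a TATA box, the binding motif of the TATA-binding protein.

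The sequence directly upstream of the TSS is shown for members of the 6 silent families with most closed promoters, to let their base composition be seen beside that of 2 CpG-rich closed promoters and of GAPDH, a glycolytic enzyme gene with a region in all 8 lists. The RefSeq TSS of GAPDH lies 752 bp from the GENCODE TSS used for that call, whereas at the other genes shown the TSSs are the same. For each family the gene shown was the closed gene farthest from any region among those with mostly unique sequence and a RefSeq TSS within the window. Each line gives the 200 bases before the RefSeq TSS (GRCh38.p14), read 5′ to 3′ on the gene's strand, and capitals mark CpG and the motif TATAAA. The stretches were, in order, chrX:131543874-131544073 (plus strand) for OR13H1, chrX:135713439-135713638 (plus strand) for CT45A1, chr6:49964165-49964364 (minus strand) for DEFB114, chr17:41232249-41232448 (plus strand) for KRTAP9-3, chrX:107982371-107982570 (minus strand) for TEX13B, chr17:41350829-41351028 (minus strand) for KRT33A, chr11:7088798-7088997 (plus strand) for RBMXL2, chr7:155457929-155458128 (plus strand) for EN2 and chr12:6535064-6535263 (plus strand) for GAPDH.
OR13H1: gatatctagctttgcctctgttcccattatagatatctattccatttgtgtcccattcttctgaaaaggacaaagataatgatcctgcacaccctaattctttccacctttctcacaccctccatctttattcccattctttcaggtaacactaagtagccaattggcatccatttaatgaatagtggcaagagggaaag
CT45A1: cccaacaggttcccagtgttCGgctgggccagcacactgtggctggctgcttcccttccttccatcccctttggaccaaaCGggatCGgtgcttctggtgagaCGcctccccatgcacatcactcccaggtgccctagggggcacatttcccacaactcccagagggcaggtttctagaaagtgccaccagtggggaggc
DEFB114: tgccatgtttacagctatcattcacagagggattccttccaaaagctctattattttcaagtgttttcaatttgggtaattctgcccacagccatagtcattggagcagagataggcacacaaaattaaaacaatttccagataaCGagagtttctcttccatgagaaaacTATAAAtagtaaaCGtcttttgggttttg
KRTAP9-3: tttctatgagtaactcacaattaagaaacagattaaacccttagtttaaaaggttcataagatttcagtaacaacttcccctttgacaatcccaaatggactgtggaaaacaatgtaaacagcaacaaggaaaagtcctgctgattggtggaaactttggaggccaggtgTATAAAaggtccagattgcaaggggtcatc
TEX13B: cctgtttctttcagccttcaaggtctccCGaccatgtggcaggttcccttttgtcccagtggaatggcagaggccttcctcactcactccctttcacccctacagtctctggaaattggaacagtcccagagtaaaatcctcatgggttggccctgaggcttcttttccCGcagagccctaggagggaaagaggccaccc
KRT33A: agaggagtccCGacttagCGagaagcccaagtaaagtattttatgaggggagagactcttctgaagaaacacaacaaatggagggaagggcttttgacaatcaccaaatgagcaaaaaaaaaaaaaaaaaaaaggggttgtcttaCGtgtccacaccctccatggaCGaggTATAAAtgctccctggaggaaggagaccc
RBMXL2: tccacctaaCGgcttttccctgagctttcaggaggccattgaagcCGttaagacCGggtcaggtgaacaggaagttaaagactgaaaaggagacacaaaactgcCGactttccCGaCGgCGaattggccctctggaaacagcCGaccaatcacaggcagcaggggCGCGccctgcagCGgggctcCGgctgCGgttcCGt
EN2: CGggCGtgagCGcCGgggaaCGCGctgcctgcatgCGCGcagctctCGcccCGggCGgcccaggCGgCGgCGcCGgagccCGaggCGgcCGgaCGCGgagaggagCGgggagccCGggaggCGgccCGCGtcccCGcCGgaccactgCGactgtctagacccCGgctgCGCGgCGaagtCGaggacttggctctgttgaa
GAPDH: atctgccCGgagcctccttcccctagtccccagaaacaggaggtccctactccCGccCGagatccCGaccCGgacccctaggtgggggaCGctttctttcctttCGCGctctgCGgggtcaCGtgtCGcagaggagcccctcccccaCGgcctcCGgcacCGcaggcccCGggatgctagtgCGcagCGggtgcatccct
The first 6 promoters held between 0 and 4 CpG in these 200 bases, RBMXL2 held 14 and EN2, a homeobox gene of the hindbrain, held 33. GAPDH held 17. TATAAA began 29 bases before the TSS of DEFB114 (a beta defensin) and of KRT33A (a hair keratin), and 30 bases before that of KRTAP9-3 (a keratin-associated protein of the hair shaft). It was not among the printed bases of the other genes, which include CT45A1, a cancer-testis gene, and TEX13B, a testis-expressed gene.

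The number of regions within 50 kb of these genes, outside their own windows, also differed. OR13H1, an olfactory receptor gene on the X chromosome, had 2 regions in replicate 1 of WT cells without UV and 1 in each of the other 7 libraries, and its nearest region lay 34449 bp from the TSS. KRTAP9-3 had 0, 3, 2, 1, 1, 2, 1 and 1 regions in the 8 libraries (WT no UV, WT UV, ASH1L-/- no UV and ASH1L-/- UV, replicates 1 and 2 of each). DEFB114 had 3, 5, 8, 6, 6, 3, 5 and 8, and KRT33A had 10, 9, 9, 8, 9, 7, 6 and 9 in the same order. EN2 had 2, 5, 5, 8, 4, 2, 3 and 6, whereas GAPDH had between 11 and 17. The closed state of the promoter was therefore found both in sequence almost without regions and in sequence with several.

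The closed promoters were of different kinds. Many genes have several annotated TSSs, and 1519 of the 3872 genes (39.2%) had a region within 1 kb of another of their TSSs in 1 or more libraries, 849 of them (21.9%) in all 8. At 2353 genes (60.8%) all annotated TSSs were closed. The promoters also differed in how much of their sequence is unique, which bears on the mapping quality minimum of 30 that the authors applied to reads of 50 bases. Of the closed promoters, 1012 (26.1%) had fewer than 90% of their 50-base words unique in the genome, against 10.2% of all promoters and 5.17% of those with a region in all 8 lists. Among the 339 promoters with less than 10% unique words, 335 (98.8%) were closed. The share was 68.6% (238 of 347) for promoters with 10% to 50% unique words, 32.6% (439 of 1345) with 50% to 90%, and 15.9% (2860 of 17939) with 90% or more. Closed calls at repeated sequence and a lack of mappable reads there cannot be told apart in these lists. All annotated TSSs were closed and at least 90% of words were unique at 1542 genes (39.8% of the closed promoters), and counts for unique sequence are given below for the main families and the chromosomes named.

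**Figure D1:**
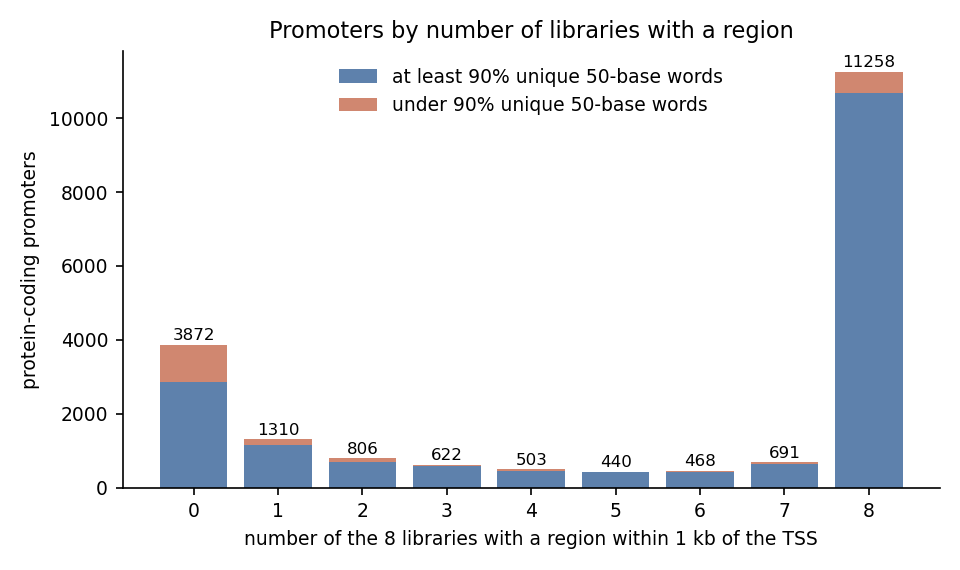
Number of protein-coding promoters (vertical axis) by the number of the 8 libraries with a region within 1 kb of the TSS (horizontal axis), split by the share of unique 50-base words in the window. The 3872 closed promoters stand at 0, and 1012 of them have under 90% unique words.

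In 35 families that were taken as candidates for silence in a bone tumour line, 717 of 1421 promoters (50.5%) were closed, against 3155 of 18549 (17%) of all other protein-coding genes. The families made up 18.5% of the closed promoters, so that most closed promoters lay outside them. The lists of families were drawn up with earlier results of these data known, so that the difference is a description.

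Olfactory receptors, the odorant-sensing receptors of the nasal epithelium and the largest family, had 282 of 415 promoters closed (68.0%), 121 with a region in 1 to 7 lists and 12 with a region in all 8. All annotated TSSs were closed at 262 genes. Among the 335 olfactory receptor genes with at least 90% unique words, 215 (64.2%) were closed, so that the share was about as high without repeated sequence. In single libraries, between 350 and 378 of the 415 promoters had no region. On chromosome 11, where the family has most genes, 116 of 178 were closed, on chromosome 1 it was 50 of 65, and on chromosome 12 it was 15 of 18. The closed olfactory receptor promoters were AT-rich, with a median GC content of 37.9% and a CpG observed/expected ratio of 0.167, and 6 of the 282 had TATAAA between 40 and 15 bases before the TSS. The 12 genes with a region in all 8 lists were chosen after their values were seen and included OR2C3, OR51D1, OR52N2 and OR6A2. Their median distance to the TSS of the nearest gene outside the family was 47427.5 bp, against 114360 bp for the closed genes. Bitter taste receptors, which sense bitter compounds on the tongue, had 15 of 24 promoters closed, 12 of them in unique sequence.

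Genes of innate defence formed another group. Of the 17 type I interferons, the antiviral cytokines that most cells induce only on infection, 16 were closed in all 8 lists, 8 of them in unique sequence. The median closed interferon promoter had a CpG observed/expected ratio of 0.120 and lay 7045 bp from the nearest region of any list. IFNA14 was nearest, with a region 3819 bp away, and IFNA13 was farthest, at 24159 bp. Alpha and beta defensins, antimicrobial peptides of neutrophils and epithelia, had 32 of 46 promoters closed (69.6%). In unique sequence 10 of 24 were closed (41.7%). DEFB112 had a region 1170 bp from its TSS. Among receptors of blood cells, 15 of 43 C-type lectin and KLR genes, 8 of 17 KIR and LILR genes, 7 of 16 MS4A genes and 1 of 12 SIGLEC genes were closed, and all of these families except MS4A and C-type lectins had mostly repeated sequence at the closed promoters. Interleukins had 12 of 38 and CC and CXC chemokines 7 of 41 promoters closed. The chemokine share was below that of all promoters.

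Genes of skin and hair were closed in part. Keratins, the intermediate filament proteins of epithelia, had 26 of 55 promoters closed, 23 in unique sequence, and 17 of the 26 had all annotated TSSs closed. KRT7, a keratin of simple epithelia, was closed at its gene-level TSS but had a region at another TSS in all 8 lists. KRT83, a hair keratin, was the closed keratin farthest from a region, at 5195 bp. KRT33A, shown above by the narrower rule for sequences, lay 4413 bp from the nearest region. Keratin-associated proteins had 30 of 94 promoters closed (31.9%), and 14 of 58 (24.1%) in unique sequence. Late cornified envelope and SPRR proteins, which crosslink the outermost layer of the epidermis, had 12 of 30 promoters closed. TATAAA was present between 40 and 15 bases before the TSS at 10 of the 30 closed keratin-associated, 9 of the 26 keratin and 6 of the 12 cornified envelope promoters, compared with 234 of all 3872 closed promoters (6.04%). Other families had similar shares, with 10 of 31 closed histone promoters and 4 of 11 each of closed cytochrome P450 promoters and of caseins and salivary proteins.

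Cancer-testis genes, which are used in the germ line and sometimes switched on in tumours, lie mostly on the X chromosome. They were closed at high rates when repeated sequence was included. SPANX, SSX, CT45 and CT47 genes had 36 of 42 promoters closed, MAGE A, B and C genes 20 of 26, the PRAME family 17 of 23, and GAGE, PAGE and XAGE genes 15 of 24. Much of this was repeated sequence. Among promoters with at least 90% unique words, 3 of 5, 11 of 17, 1 of 2 and 1 of 7 were closed, in the same order. The share of the GAGE, PAGE and XAGE genes (14.3%) was then below the 15.9% of all promoters with such sequence. Of the MAGE genes, 5 had a region in all 8 lists. The USP17-like proteases, deubiquitinases encoded in tandem repeats, had 25 of 26 promoters closed and no promoter of the family reached 90% unique words. MAGEB18 was the closed MAGE gene farthest from any region. It had fully unique sequence (100%), and its nearest region lay 123577 bp away. MAGEA12 was the nearest, at 1508 bp. Testis-specific SPATA and TEX genes had 30 of 76 promoters closed and 26 open in all 8 lists.

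**Figure D2:**
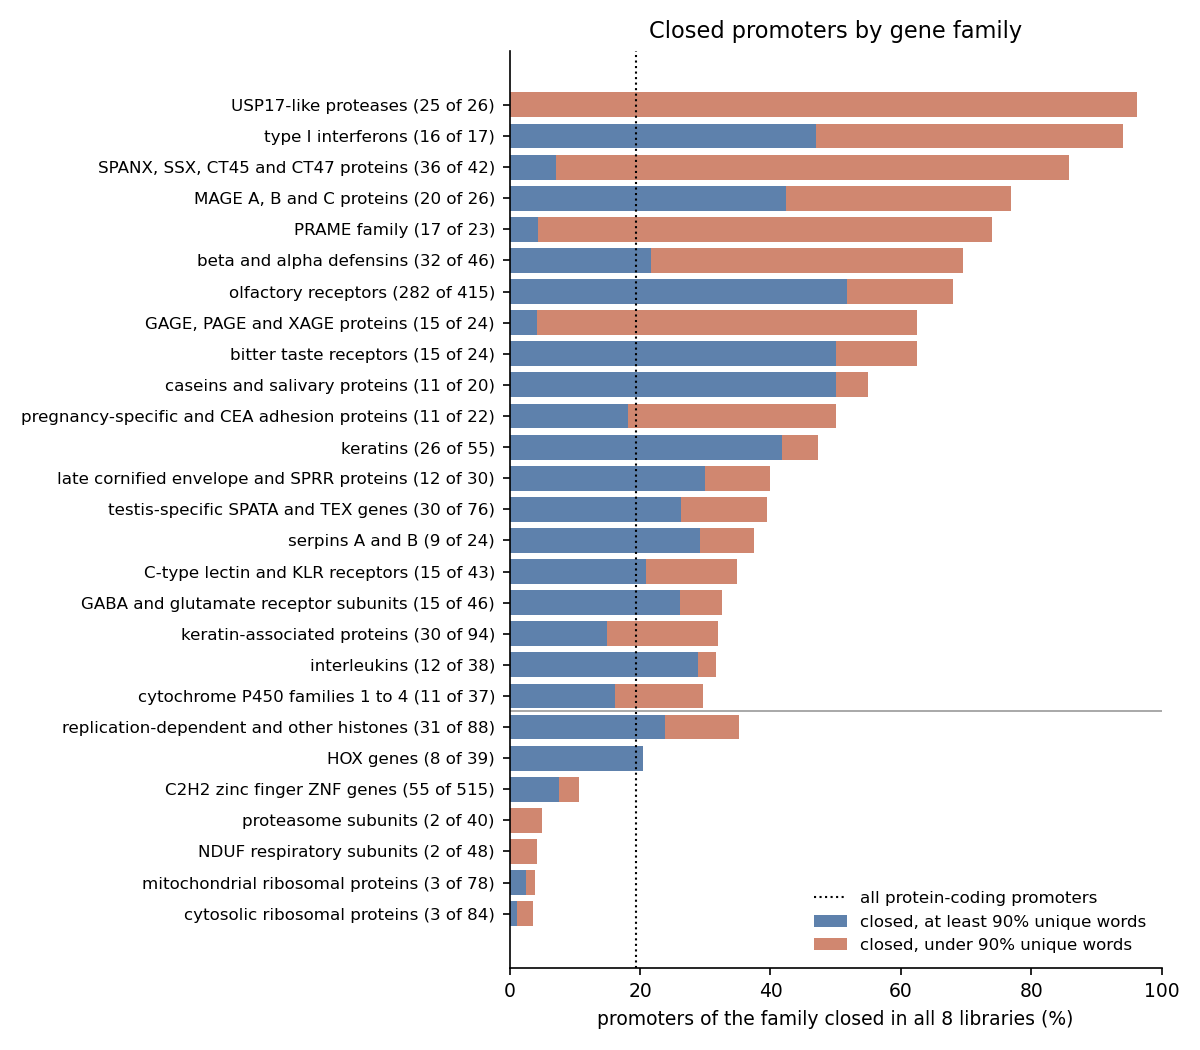
Share of the promoters of each family closed in all 8 libraries (horizontal axis, %), split into promoters with at least 90% and under 90% unique words, for the 20 silent candidate families with most closed promoters (above the line) and 7 contrast families (below it). Counts stand beside the names, and the dotted line marks all protein-coding promoters at 19.4%.

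Contrast families were closed at differing rates. C2H2 zinc finger ZNF genes, the largest, had 55 of 515 promoters closed (10.7%) and 399 with a region in all 8 lists. Cytosolic ribosomal proteins had 3 of 84 promoters closed, mitochondrial ribosomal proteins 3 of 78, proteasome subunits 2 of 40 and NDUF subunits of respiratory complex I 2 of 48. Of these 10 closed promoters, 3 had at least 90% unique words, and none was closed at all annotated TSSs in unique sequence. Replication-dependent and other histone genes had 31 of 88 promoters closed, 21 of them in unique sequence, and HOX genes 8 of 39, of which 3 were closed at all annotated TSSs.

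The lineage of the cells was checked with marker genes. Of 23 markers of mesenchyme and the osteoblast lineage, 15 had a promoter region in all 8 lists and 3 were closed. Open promoters were not limited to this lineage, since 10 of 19 neuronal and 7 of 19 epithelial markers had a region in all 8 lists, so that these markers do not set the lineage apart from the neuronal one. ALPL, encoding alkaline phosphatase, and CALD1, encoding caldesmon, were closed at the gene-level TSS and had a region at another TSS in all 8 lists. IBSP, a late marker of mineralising osteoblasts, was closed at all TSSs. At the gene-level TSS, muscle markers were closed most often, at 12 of 20, followed by hepatocyte and by pancreas and gut markers at 10 of 20 each. Haematopoietic markers were closed at 10 of 24, epithelial at 7 of 19, germ-line at 7 of 20 and neuronal at 2 of 19. All annotated TSSs were closed at 8 muscle, 7 hepatocyte, 7 pancreas and gut, 6 haematopoietic and 5 germ-line markers. This held for only 1 epithelial and 1 neuronal marker. The myogenic regulators MYOD1, MYF5 and MYF6 were closed at all annotated TSSs, with the nearest regions at 1077, 6104 and 2985 bp. CD3E and CD3G, subunits of the T cell receptor complex, and FGA, FGB and FGG, which encode the chains of fibrinogen, were likewise closed at all TSSs. At 8 of the markers, among them ALPL and CALD1, the epithelial adhesion gene CDH1 and the neuronal splicing factor gene RBFOX3, the gene-level TSS was closed while another TSS had a region in all 8 lists.

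Closed promoters lay next to each other in runs. With genes ordered by TSS, 84 runs of 5 or more consecutive closed genes held 647 genes, which is 16.7% of the closed promoters. Where each gene of a run also had to have at least 90% unique words, so that any other gene ended the run, there were 31 runs. In 26 runs all genes had at least 90% unique words, and in 40 runs less than 50% of them did. The longest run, 49 genes on chromosome 8 from DEFA6 to FAM90A12P, contained defensins and the duplicated FAM90A genes, and 3 of its genes had unique sequence. The run from FAM90A26 to SLC2A9 on chromosome 4 had 24 genes, 20 of them USP17-like proteases, and 1 had unique sequence. The run from CT47B1 to CT47A1 on the X chromosome had 14 genes, none with unique sequence, and no region in any library. Its interval of 112 kb holds 0.0619 Mb of known bases, and the rest is an assembly gap in which no region could be called.

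The longest run with mostly unique sequence was on chromosome 11, from OR5F1 to OR5AL1 (chr11:55993625-56413696). All 18 genes are olfactory receptors, and 17 had unique sequence. Between the first and the last promoter, 4 and 8 regions were called in WT cells without UV, 4 and 6 in WT cells after UV, 16 and 7 in ASH1L-/- cells without UV, and 7 and 11 in ASH1L-/- cells after UV. Per Mb this is 9.52 to 38.1 regions, which was 0.155 to 0.502 of the density of the respective list over the genome. A second olfactory receptor run on chromosome 12, from OR9K2 to OR2AP1 (chr12:55125406-55573468), had 14 genes, all unique, with 9 to 21 regions.

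Runs of other genes had unique sequence too and were named after their values were seen. The run from GIMAP8 to AOC1 (chr7:150449630-150825627) had 11 genes, 8 of them genes or readthrough transcripts of the GIMAP family of lymphocyte GTPases. In its 376 kb the 8 libraries had 2, 3, 5, 5, 1, 3, 4 and 4 regions. The run from TCHHL1 to LCE5A (chr1:152088064-152511803) had 8 genes of the epidermal differentiation complex, among them FLG, which encodes filaggrin. It held 28 to 38 regions, or 66.1 to 89.7 per Mb. The closed genes of this epidermal run thus lay among regions at 0.965 to 1.56 of the genome's density, and the closed GIMAP genes at 0.035 to 0.239 of it.

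Clusters of a family, with neighbours less than 500 kb apart, were also measured as a whole. There were 75 clusters of 5 or more genes in the silent families, and they held 546 closed promoters among 1030 genes. More than 50% of the promoters were closed in 37 clusters. In 27 clusters the region density was below that of the genome in all 8 libraries, and in 19 it was above it in all 8. Among olfactory receptors 12 of 21 clusters were below and 1 was above. How many other stretches of the genome were below or above in all 8 libraries was not measured, so that these counts have no background. The cluster from OR4A16 to OR5AK2 on chromosome 11 had 42 of 50 promoters closed at 0.317 to 0.584 of the genome's density, and that from OR6X1 to OR8A1 on the same chromosome had 22 of 24 closed at 0.20 to 0.562. The cluster from OR52B4 to OR52W1, near the end of the short arm of chromosome 11, differed. It had 24 of 57 promoters closed and a density of 0.752 to 1.23 of the genome's. All 16 promoters were closed in the interferon cluster from IFNB1 to IFNE on chromosome 9, with a relative density of 0.324 to 0.859. The keratin cluster on chromosome 12 from KRT80 to KRT8 had 11 of 27 promoters closed at 2.06 to 2.47 times the genome's density. In the zinc finger cluster from ZNF101 to ZNF254 on chromosome 19, 21 of 37 promoters were closed and 10 had a region in all 8 lists, at 0.106 to 0.220 of the genome's density.

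By chromosome, X had the highest share of closed promoters, with 336 of 859 (39.1%), and 201 of 690 (29.1%) among promoters with unique sequence. Chromosome 11, with many olfactory receptors, followed with 316 of 1317 (24%), and chromosome 20 had the lowest share, with 57 of 546 (10.4%). In unique sequence the shares of chromosomes 15 (8.12%) and 22 (9.90%) were below that of chromosome 20 (10.1%), and that of chromosome 11 was 21.3%.

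Closed promoters were poor in CpG. Their median CpG observed/expected ratio was 0.279, against 0.418 in promoters with a region in 1 to 7 lists and 0.687 in promoters with a region in all 8. A ratio over 0.6 was found at 18.2% of closed promoters and at 71.3% of those with a region in all 8 lists. The median GC content was 47.9% and 56.3%. TATAAA between 40 and 15 bases before the TSS, on the gene's strand, was found at 6.04% of closed promoters, at 1.23% of promoters with a region in all 8 lists and at 3.03% of all promoters. GGGCGG, on either strand from 250 bases before to 50 after the TSS, was found at 26.6%, 65.3% and 52.4% of these promoters, and CCAAT at 37.9%, 37.5% and 35.9%. A match of these letters is no evidence of binding. At the 1542 genes with all TSSs closed and unique sequence the median CpG ratio was 0.239 and 8.24% had TATAAA.

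**Figure D3:**
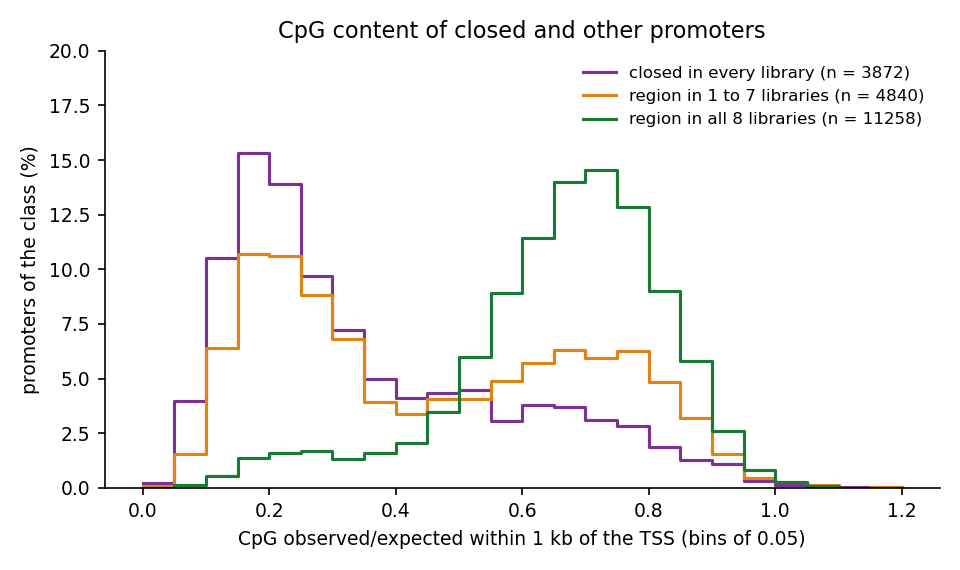
Distribution of the CpG observed/expected ratio within 1 kb of the TSS (horizontal axis, bins of 0.05) as the share of promoters of each class (vertical axis, %). Closed promoters peak near a ratio of 0.2 and promoters with a region in all 8 libraries near 0.7.

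A minority of closed promoters was rich in CpG. The ratio was over 0.6 at 703 closed promoters, and at 264 of these all annotated TSSs were closed and the sequence was unique. Among all closed promoters with at least 90% unique words, the highest ratios were found at RBMXL2 (1.10), a retrogene with a role in the germ line, EN2 (1.06), IRS2 (1.05), the insulin receptor substrate, and FOXI3 (1.02), a forkhead gene. SALL3 (1.02), NKX6-2 (1.01), ENTREP2 (0.996), POU3F1 (0.985), DUSP5 (0.975) and AJAP1 (0.967) followed. SALL3 had a region at another TSS in all 8 lists, and ENTREP2 and AJAP1 at another TSS in 1 list. By a list of symbols of developmental transcription factors, written after these genes had been seen, 51 of the 264 promoters (19.3%) belonged to such factors, compared with 8 of the 1278 CpG-poor closed promoters of the same kind and with 2.31% of all CpG-rich promoters. They included the homeobox genes MNX1, GBX2 and TLX3, the SOX genes SOX1 and SOX11, and GATA6, NKX2-4, FOXC2 and IRX1. SOX11, a factor of the developing nervous system, had its nearest region 3257 bp from the TSS and 20 accessible sites of the joined lists within 50 kb. Around MNX1 the nearest region lay 28888 bp away. GC content moved with closure here. Among CpG-rich promoters with unique sequence, 15.1% were closed where the GC content was 70% or more (87 of 576), 6.77% at 60% to 70% (240 of 3546), 3.86% at 50% to 60% (184 of 4765) and 4.39% below (40 of 911). The part of GC content in this result was not tested.

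Few closed promoters were far from a region of any list. The joined lists held 548046 sites, 60.5% of them with a region in only 1 library. Distances from other positions of the genome were not measured. The nearest region of any list lay 2841 bp from the TSS in the median (quartiles 1657 and 7513 bp), at 1303 promoters (33.7%) within 2 kb, at 771 (19.9%) beyond 10 kb and at 174 (4.49%) beyond 50 kb. Just inside the rule, KRTAP5-8, MEGF6 and PHOX2A had their nearest region 1002 bp from the TSS, and ICE1 1003 bp. MEGF6 and ICE1 had a region at another TSS in all 8 lists. Just outside it, a region of 1 library overlapped the window by 1 bp at SERPIND1, 2 bp at FFAR2, 3 bp at BNIP5 and 5 bp at AQP5 and NT5C2. The 1310 promoters with a region in only 1 library had mostly weak ones. Their region had a median fold enrichment of 2.65 over the local background of the library and a median percentile of 25.7 in its list, and 67.7% of these regions had a q-value below 0.05.

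Of the 174 closed promoters without any site of the joined lists within 50 kb, 146 had under 90% and 144 under 50% unique words. Among those in repeated sequence were POTEB (343445 bp), SPATA31A5 (312018 bp), NPIPA8 (239883 bp), TP53TG3 (213825 bp) and TP53TG3E (212645 bp), in each of which less than 10% of words were unique. FAM47A, on the X chromosome, had 93.6% unique words and its nearest region at 239411 bp. The 28 promoters with unique sequence and no site within 50 kb were named after their values were seen. They included GIMAP2, GIMAP4, GIMAP6 and GIMAP7, the chromosome 19 zinc finger genes ZNF99, ZNF486, ZNF626, ZNF681, ZNF723, ZNF728 and ZNF737, and on the X chromosome MAGEB18, MAGEB6, MAGEC3, AGTR2, CD40LG and LUZP4.

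Accessibility in the 50 kb either side was measured outside the closed windows, as regions per Mb of the joined surroundings in each library (289 Mb). It ranged over the 8 libraries from 66.6 to 86.5 regions per Mb, which was 1.14 to 1.32 times the density over the genome. Around promoters with a region in all 8 lists it was 65.5 to 90.4 per Mb (1.19 to 1.26 times), and around those with a region in 1 to 7 lists 81.5 to 108.6 (1.43 to 1.56 times). This measure counts dense gene neighbourhoods once and leaves out the windows of each class's own promoters. Regions at open promoters were thus counted around closed promoters but not around open ones. The similar densities therefore do not show that the surroundings of closed promoters were as rich in regions. Counted per promoter, the surroundings of closed promoters were poorer. The median was 5 to 7 regions per library within 50 kb against 7 to 10, and 17 sites of the joined lists against 25. At 1335 closed promoters (34.5%) another promoter with a region in all 8 lists lay within 50 kb. Regions around closed promoters had a median fold enrichment at percentiles 51.0 to 56.0 of their list, and those around promoters with a region in all 8 lists at percentiles 46.0 to 48.0. These 2 sets are not like for like, since only the first includes regions at the open promoters themselves. The part of this in the difference was not tested. Of the 59416 joined sites around closed promoters, 14.6% had a region in all 8 libraries, against 11.0% of the 548046 sites of the genome. The surrounding sites include open promoters of other genes, and this share was not measured around other classes of promoter.

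The distance profile showed where these regions lay. Relative to the genome, the mean density around closed promoters was 1.17 at 1 to 2 kb, 1.66 at 2 to 3 kb and 1.51 at 4 to 5 kb, and then 1.13 at 9 to 10 kb and 1.05 at 49 to 50 kb. The 0 within 1 kb follows from the rule, which also removes regions that reach into the window and so lowers the next steps. Around promoters with a region in all 8 lists the density was 1.42 at 9 to 10 kb and 1.46 at 49 to 50 kb.

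**Figure D4:**
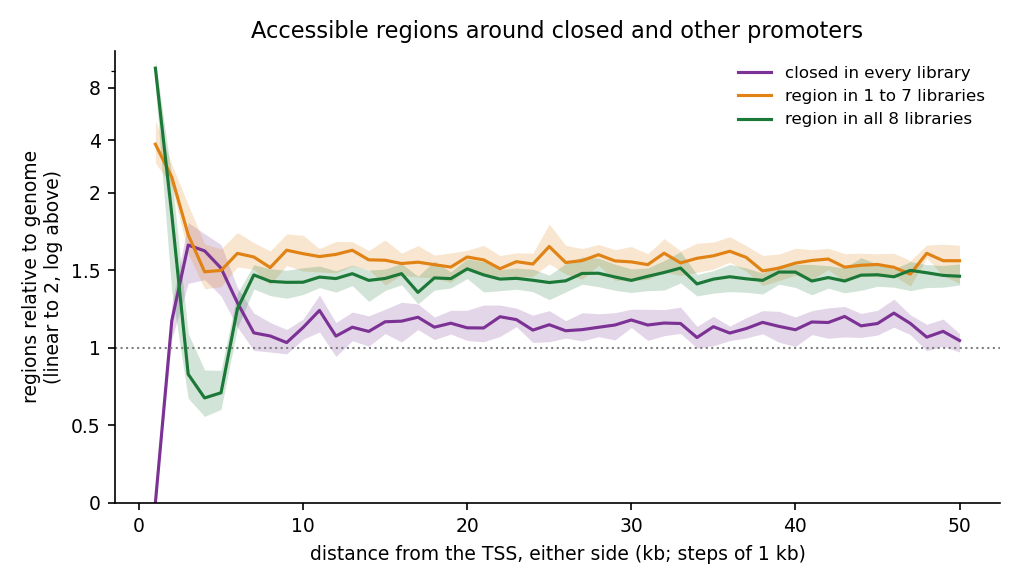
Density of regions relative to the genome (vertical axis, linear to 2 and logarithmic above) by distance from the TSS (horizontal axis, kb), as the mean over the 8 libraries with the band from the lowest to the highest library. Closed promoters are at 0 within 1 kb by definition, at 1.66 at 2 to 3 kb and between 1.05 and 1.24 beyond 10 kb, below the other 2 classes from 10 kb on.

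The kinds of closed promoter differed in their surroundings. Where another TSS of the gene had a region, the density was 82.1 to 106.0 regions per Mb (1.40 to 1.59 times the genome). Where all TSSs were closed in unique sequence it was 63 to 81.6 (1.08 to 1.25 times), and around promoters with under 90% unique words it was 46.4 to 59.9 (0.790 to 0.952 times). Closed olfactory receptors had 32.8 to 51.9 regions per Mb (0.590 to 0.685 times) and, in unique sequence, 34.9 to 55.7 (0.628 to 0.734 times). Their median was 2 to 4 regions per library within 50 kb, and their median distance to the nearest promoter with a region in all 8 lists was 203 kb, against 86.2 kb for all closed promoters. The low density around olfactory receptors was thus also present without repeated sequence.

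To determine whether UV or the loss of ASH1L changed the surroundings of closed promoters, the log2 of the relative density was compared over the 8 libraries. It was 0.29 and 0.28 in WT cells without UV and 0.35 and 0.40 in WT cells 3 h after UV. In ASH1L-/- cells it was 0.19 and 0.29 without UV and 0.33 and 0.29 after UV. The UV libraries were mostly higher, but replicate 2 of ASH1L-/- cells after UV lay below 2 of the libraries without UV. The mean was 0.34 ± 0.044 (SD, n = 4) after UV and 0.26 ± 0.049 without, a difference of 0.079 that did not pass the test (p = 0.0857, adjusted p = 0.4 over the 6 tests, exact permutation test, two-sided, smallest attainable p 0.0286). Between ASH1L-/- and WT cells the difference was -0.052 (p = 0.314, adjusted p = 0.471, exact permutation test), and the effect of UV was larger by 0.018 in WT than in ASH1L-/- cells (p = 0.8, adjusted p = 0.96, exact permutation test). List length moved with this measure, since the longest list, replicate 1 of ASH1L-/- cells without UV, had the lowest relative density. Its part in the result was not tested.

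The strength of the surrounding regions was compared by their percentile of fold enrichment, which was not normalised between lists. The median percentile was 55.1 and 56.0 in WT cells without UV, 53.8 and 51.0 in WT cells after UV, 55.1 and 53.1 in ASH1L-/- cells without UV, and 53.1 and 54.6 after UV. In WT cells both values after UV were below both values without, and in ASH1L-/- cells they overlapped. The UV difference was -1.69 percentile points (p = 0.171, adjusted p = 0.4, exact permutation test, two-sided), the genotype difference -0.027 (p = 0.971, adjusted p = 0.971) and the difference of the UV differences, WT minus ASH1L-/-, -2.92 (p = 0.2, adjusted p = 0.4). None of the 6 comparisons passed, which at 4 against 4 libraries does not show that the surroundings were alike.

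**Figure D5:**
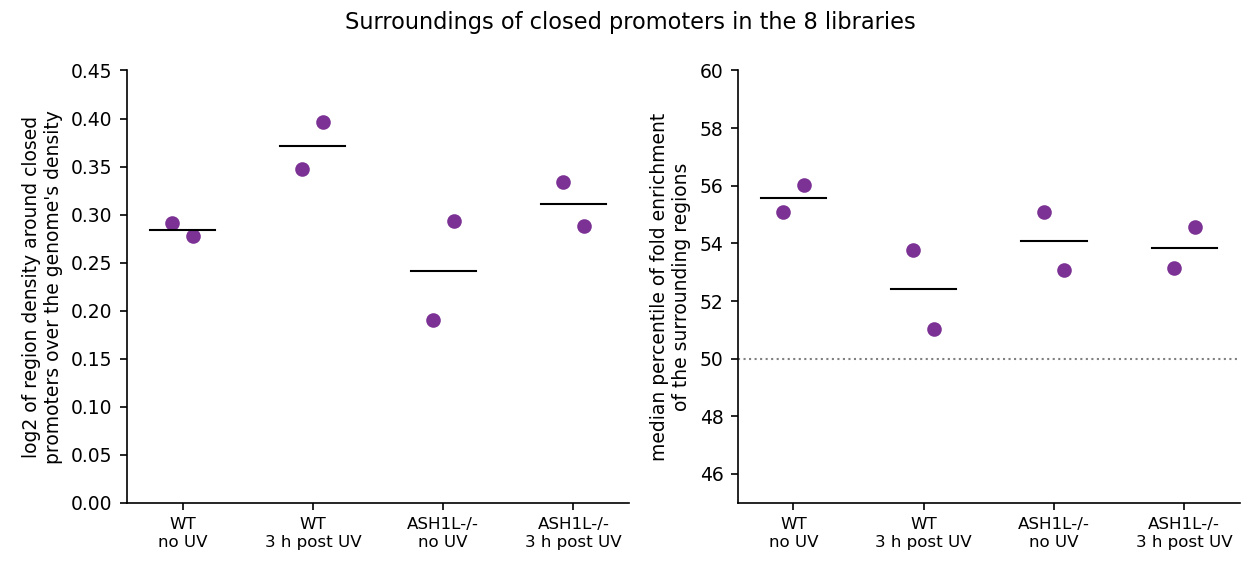
Left, log2 of the region density in the 50 kb around closed promoters over that of the genome, and right, median percentile of fold enrichment of these regions within their list (the axis starts at 45, dotted line at 50), with 1 point per library and the mean of each group as a line. The values range from 0.19 to 0.40 on the left and from 51.0 to 56.0 on the right, and the UV and no-UV libraries overlap in each.

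Single sites that separated the conditions were counted around closed promoters. Sites called after UV in all 4 libraries, and in no library without UV, made up 456 of the 59416 sites (0.767%), against 0.686% of all sites of the genome. These sites lay within 50 kb of 546 closed promoters (14.1%), among them 38 of the 282 closed olfactory receptors. The opposite pattern was found at 68 sites (0.114%, genome 0.0967%), near 80 closed promoters (2.07%). The share of other promoters near such sites was not measured, so that these promoter counts have no background. A region in all 4 ASH1L-/- libraries and in no WT library was found at 124 sites (0.209%, genome 0.186%), and the reverse at 47 sites (0.0791%, genome 0.0768%). Each share of sites was close to that of all sites of the genome.

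Whole clusters were compared in the same way. Of 73 clusters of silent families with any region, the relative density was higher in all UV libraries than in all libraries without UV at 4 (5.48%), against 5.01% of all 500 kb bins of the genome, and lower at 1 (1.37%, bins 1.99%). It was higher in all ASH1L-/- than in all WT libraries at 7 (9.59%, bins 7.17%) and lower at 7 (9.59%, bins 11.9%). The cornified envelope cluster from LCE5A to SPRR2G on chromosome 1 was among the latter, where WT cells had 47, 55, 44 and 50 regions and ASH1L-/- cells 27, 26, 28 and 43. The olfactory receptor cluster from OR10T2 to OR6N2 on the same chromosome had 12, 15, 7 and 8 regions in WT and 1, 1, 5 and 6 in ASH1L-/- libraries. Among the clusters with a higher density in ASH1L-/- cells were the caseins and salivary proteins from CSN1S1 to ENAM on chromosome 4, with 27, 29, 21 and 21 regions in WT and 68, 33, 27 and 42 in ASH1L-/- libraries. These examples were chosen after their values were seen. The lower clusters FCRL5 to CD1E and OR2B11 to OR14I1 also lay on chromosome 1. Other lower ones lay on chromosomes 7, 17 and 21. The higher cluster CXCL8 to CXCL2 also lay on chromosome 4, and other higher ones on chromosomes 5, 6, 7 and 11. Whether longer stretches of these chromosomes differed between the lines was not tested. The clusters differed in length from the 500 kb bins, so that the shares of clusters and bins are not like for like.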

How the data were processed

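Omni-ATAC-seq libraries were read as 50-base pairs. The authors trimmed adapters with cutadapt 1.9.1, aligned with Bowtie2 2.4.5 to hg38 without chromosome Y, removed duplicates, blacklisted regions, mitochondrial reads and mapping qualities under 30, and called peaks per library with MACS2 2.2.7.1. Replicates were not pooled. The deposited lists gave for each summit a fold enrichment (a ratio to local background), −log10 p-value and −log10 q-value and a score, made by the authors' peak caller and not normalised between libraries. The weakest regions of the lists had p-values of about 0.01. Fold enrichment was used as a percentile within a list, the q-value as a threshold, and the score was not used. Rank numbers in the peak names skip 234 to 397 records per list (0.0983% to 0.135%). Those records were not analysed here, and a promoter whose regions were all among them would count as closed.

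A region was a distinct interval on chromosomes 1 to 22 and X, placed by its midpoint. Overlapping regions of the 8 lists were joined into sites. Unique words were the 50-base words of the window that occur once, on either strand, in the hg38 sequences given, other contigs included. A run was 5 or more consecutive closed genes by TSS, and a family cluster 5 or more genes less than 500 kb apart. Relative density was the density of regions divided by that of the same list over 2911 Mb. The 6 tests were exact permutation tests, two-sided, over 70 assignments, with Benjamini-Hochberg adjustment. Libraries were not treated as paired by replicate number. Correlations of deviations between groups ran from -0.082 to 0.15, which does not settle whether the numbers pair the libraries. Sequences came from RefSeq by symbol (2784 closed genes matched, 2127 with a TSS within the window). Python 3.11.15, numpy 2.4.6 and pandas 2.3.3 were used, and the interval code was tested on simulated data.

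The promoters and the gene lists were chosen with earlier results of these data known. Named genes were, by rule, the farthest and nearest closed gene of the 12 families with most closed promoters, the ends of the 10 longest runs, the 10 farthest promoters, 5 promoters on each side of the window's edge, the 10 with the highest CpG ratio in unique sequence, the markers, and the sequences. The limit to unique sequence with a RefSeq TSS in the window was added to the rule for sequences after values were seen. Not every gene the rule names is reported here.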

Additional observations from a re-analysis of the deposited data

How the results depend on the processing

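The number of closed promoters depended on the definition. It was 3872 as reported, 2570 with windows of 2 kb either side, and 2353 where every annotated TSS had to be closed. Without any 1 library it lay between 3975 and 4159, and the other alternatives kept it within 1.5 times. None of the 6 tests passed as reported. The UV difference in the median percentile of fold enrichment, -1.69 as reported, was -2.28 with 25 kb either side, -2.39 at a q-value threshold of 0.05 and -2.49 at 0.01 (p = 0.0286 each, exact permutation test, unadjusted, the smallest attainable), and between -0.72 and -2.49 over its 7 alternatives. The cause was not tested. Without 1 library it lay between -2.28 and -1.06. The UV difference in log2 relative density lay between 0.052 and 0.095 without 1 library, and p was 0.0286 (exact permutation test) for 0.095, without replicate 2 of ASH1L-/- cells after UV. It was 0.019 to 0.092 over the other 8 alternatives. The genotype difference in percentile, -0.027, reversed to 0.82 with 25 kb, 0.020 with 100 kb, 0.84 at the q-value threshold of 0.05, 0.41 at 0.01 and 0.029 with unique sequence, and lay between -1.04 and 0.63 without 1 library. The UV by genotype difference in density reversed to -0.018 at the q-value threshold of 0.01 and lay between -0.042 and 0.090 without 1 library. In all 93 alternatives of the tests, 4 reached p of 0.05 or less, none of them adjusted. With the replicate block the p-values of the same differences, 0.079, -0.052 and 0.018 in density and -1.69, -0.027 and -2.92 in percentile, were 0.25, 0.375, 0.875, 0.375, 0.875 and 0.5 (exact permutation test, smallest attainable 0.125), and it changed no call. The lists hold no counts, so that a promoter below the detection limit of every library cannot be separated from a closed one.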
